A study of Mus musculus with 2 samples.

Results

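Lewis lung carcinoma (LLC) cells with the most RNA of Prg4, Aspn, Ptn and H19 were examined in single-cell RNA libraries of 2 tumor conditions. The members were chosen by these values in 2 steps. A gate for the tumor lineage took barcodes with at least 5000 UMIs (unique molecular identifiers, each standing for 1 captured RNA molecule), under 10% mitochondrial UMIs, at least 700 CPM (counts scaled to a total of 1000000 UMIs per cell or set of cells) of Rhox5, Krt8, Krt18 and Hmga2 together, and under 300 CPM of the immune genes Tyrobp, Fcer1g and Ctss together. Of the gate cells of both libraries pooled, the top 10% by the CPM sum of the 4 genes were kept. This gave 1577 members out of 15762 gate cells, and the series holds 40638 barcodes.

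The CT library came from sGC Ctr mice, which carry Gucy1b1 flox/flox alleles without Cre, and the KO library from sGC ΔPC mice, which carry Cspg4-CreER T2 beside the same floxed alleles. Gucy1b1 encodes a subunit of soluble guanylate cyclase, the receptor of nitric oxide, and the Cspg4 promoter drives the recombinase in pericytes and in other cells that use this gene, so the implanted cancer cells of both groups keep their own alleles. All mice were C57BL/6, were given tamoxifen in 5 doses when 4 weeks old, received LLC cells at 8 weeks and were dissected 2 weeks later. Each library pooled cells of 3 tumors, and there was 1 library per condition, so differences between tumors could not be seen and no test between conditions was possible. Intervals below are at 95% and cover counting error only.

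Prg4 encodes lubricin, a mucin-like glycoprotein that lubricates joints and tendons. Aspn encodes asporin, a small leucine-rich proteoglycan of connective tissue, Ptn encodes pleiotrophin, a heparin-binding growth factor, and H19 is a long non-coding RNA from the imprinted locus that it shares with Igf2. These genes are typical of embryonic mesenchyme and of joint and tendon tissue, and Osr2, a transcription factor of limb and joint development, is known from the same tissues. LLC cells are a mouse lung carcinoma line that grows with strong mesenchymal features.

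In mm10 (GENCODE annotation), Ptn lies at chr6:36714929-36810220 on the minus strand, Aspn at chr13:49544443-49567565 on the plus strand, Prg4 at chr1:150449412-150466165 on the minus strand and H19 at chr7:142575529-142578143 on the minus strand. The promoters of the protein-coding pair for which RefSeq sequence was at hand (build GRCm38.p6, 250 bases before to 50 bases after the start) are shown because these genes chose the cells and had very different amounts of RNA. Capitals mark the TATA motif (TATAAA) and the CCAAT motif (CCAAT), each searched on both strands. The Ptn window is chr6:36810130-36810429 on the minus strand and the Aspn window is chr13:49544193-49544492 on the plus strand.
Ptn: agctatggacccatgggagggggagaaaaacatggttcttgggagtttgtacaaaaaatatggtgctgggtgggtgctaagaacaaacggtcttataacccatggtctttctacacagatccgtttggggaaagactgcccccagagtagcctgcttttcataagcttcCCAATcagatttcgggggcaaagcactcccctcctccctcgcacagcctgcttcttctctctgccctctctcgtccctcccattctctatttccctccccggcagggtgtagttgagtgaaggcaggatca
Aspn: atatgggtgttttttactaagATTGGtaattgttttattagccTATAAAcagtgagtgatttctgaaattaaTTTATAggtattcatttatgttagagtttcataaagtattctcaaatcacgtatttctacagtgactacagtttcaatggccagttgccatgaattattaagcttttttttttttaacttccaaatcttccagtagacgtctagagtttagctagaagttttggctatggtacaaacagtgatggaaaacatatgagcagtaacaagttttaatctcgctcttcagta
Of 32851 RefSeq promoter windows of this kind, 13.6% hold the TATA motif and 37.4% the CCAAT motif. The H19 transcript is also the precursor of miR-675, whose mature sequences lie at chr7:142577112-142577133 and chr7:142577078-142577099 on the minus strand. The seed (bases 2 to 8) is in capitals. The libraries capture polyadenylated RNA, so the mature forms were not measured.
mmu-miR-675-5p: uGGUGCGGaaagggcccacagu
mmu-miR-675-3p: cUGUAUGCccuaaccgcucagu

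The CT library held 15007 barcodes and 487859656 UMIs, of which 6885 barcodes were in the gate. The KO library held 25631 barcodes and 436352742 UMIs, of which 8877 were in the gate. A member had a median of 41761.5 UMIs in CT and 26982 in KO, and another gate cell 52617 and 20202.5. The KO gate was therefore much shallower, and the lower quartile of its other gate cells was 9886.75 UMIs. The libraries shared 131 barcode sequences, 1 of them among the members.

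The floxed gene was read first. In barcodes rich in the pericyte genes Rgs5, Higd1b and Notch3 and poor in the cancer genes, Gucy1b1 had 54 UMIs in 38 CT barcodes (112 CPM, interval 84.5 to 147) and 14 UMIs in 36 KO barcodes (47.2 CPM, 25.8 to 79.2). Whether the 3' reads fall in the deleted exons is not given in the sources used here, so this level is no test of the deletion. The members had 1 Gucy1b1 UMI in CT and 3 in KO, and the partner subunit Gucy1a1 had 0 and 3, so these cancer cells held next to no RNA of either gene in both conditions. The limit that a count of 0 allows was set at 3 counts of the set's total throughout, which is 0.0692 CPM in CT members, as for Gucy1a1, and 0.139 CPM in KO members.

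The cut lay at 466 CPM of the 4 genes. The lowest member had 466.5 CPM and the highest cell left out 466.1, and 197 members lay within 10% of the cut. The members are thus the upper end of a ranked sum, and whether they form a cluster of their own was not tested. Over the gate the median sum was 77.6 CPM and 4153 cells (26.3%) had a sum of 0. The median member had a sum of 820 CPM in CT and 718 in KO. This rested on a median of 37 UMIs of the 4 genes in a CT member and 20 in a KO member, and on 4 UMIs at the 5th percentile of KO members.

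Ptn and H19, and not Prg4 and Aspn, carried most of the sum. Ptn gave 68.0% of the UMIs of the 4 genes in CT members and 42.6% in KO members, and H19 gave 26.5% and 50.2%. Ptn was the highest of the 4 in 668 of 924 CT members (72.3%, interval 69.3 to 75.2) and in 348 of 653 KO members (53.3%, 49.4 to 57.2). H19 was the highest in 225 (24.4%, 21.6 to 27.3) and 278 (42.6%, 38.7 to 46.5). Prg4 led in 20 and 14 members and Aspn in 11 and 13.

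Prg4 had a UMI in 13.3% of CT and 13.8% of KO members, and Aspn in 37.8% and 30.2%. All 4 genes were found together in 36 CT members (3.9%) and 24 KO members (3.68%), while 279 (30.2%) and 181 (27.7%) had UMIs of 1 of them alone. A name after Prg4 and Aspn would thus describe a minority, and the members are called Ptn- and H19-high cancer cells here for the genes that carried the sum. This name does not hold for every cell either, since 440 CT members (47.6%) and 376 KO members (57.6%) had UMIs of both Ptn and H19. These shares were not read at equal depth, and free RNA may add to them. Of macrophage-rich barcodes, 8.49% in CT and 15.5% in KO had an H19 UMI, and 7.02% and 6.36% a Ptn UMI. Those barcodes were shallower, with medians of 10687 and 10950 UMIs. In the cells that the rule chose, Ptn had 645 CPM in CT and 403 in KO against 71.1 and 63.7 in the other gate cells. H19 had 251 and 474 CPM against 20.6 and 35.3, Aspn 31.1 and 32.9 against 4.78 and 5.08, and Prg4 21.6 and 34.8 against 1.9 and 2.98. These ratios follow from the choice of the cells. Of the Prg4 UMIs in members, 29% in CT and 39% in KO came from 3 cells in each library. Without the cell that held the most, Prg4 had 19.4 CPM in CT and 27.1 in KO members.

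Osr2, which the rule did not use, was higher in the members of both libraries. It had 63.8 CPM (61.4 to 66.2) in CT members and 27.5 in the other gate cells, a log2 ratio of 1.21 (1.15 to 1.28). In KO it had 48.5 CPM (45.6 to 51.5) and 25.6, a log2 ratio of 0.92 (0.83 to 1.01). With every cell thinned to 5000 UMIs, 23.1% of CT members and 19.9% of KO members had an Osr2 UMI, against 11.7% and 11% of the other gate cells. Without thinning these shares were 68.6% and 50.1% against 48.3% and 36.4%. In macrophage-rich barcodes, which should lack Osr2 and had median depths of 10687 and 10950 UMIs, the thinned shares were 1.65% and 2.75%. Osr2 was thus above the level of free RNA in both sets of cancer cells.

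**Figure D1:**
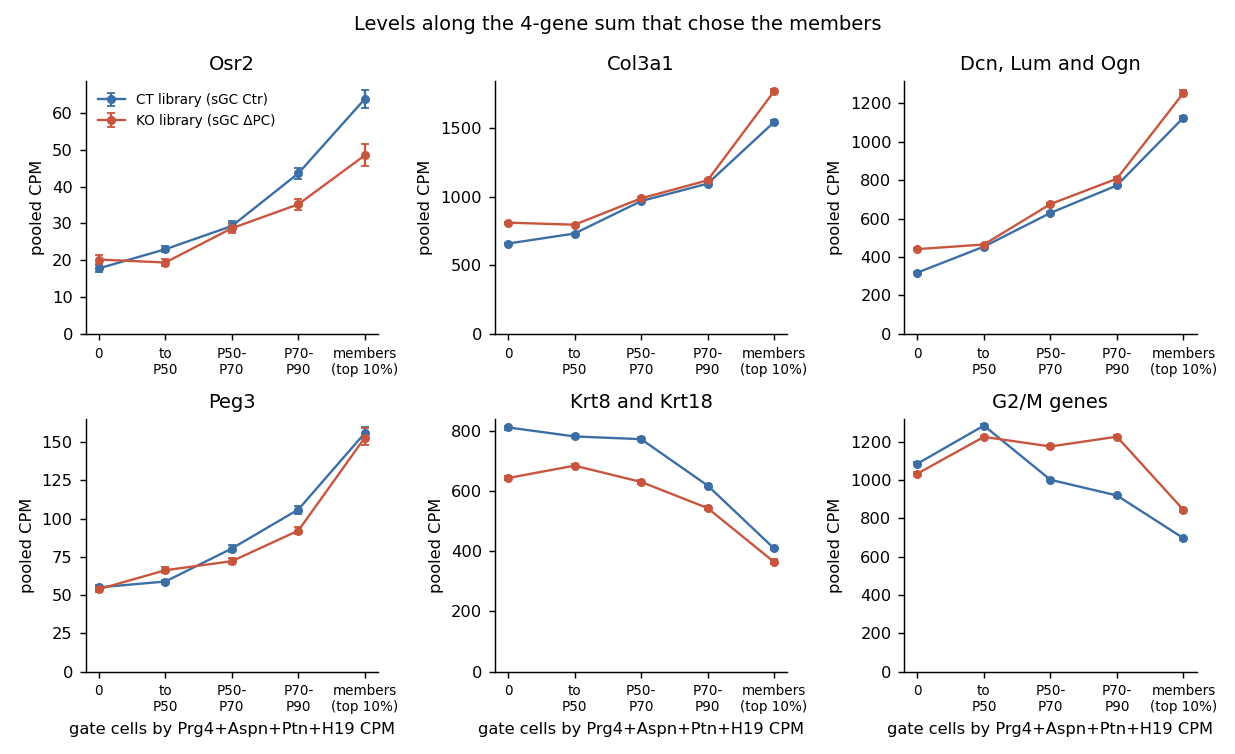
Pooled CPM (vertical axis, from 0) of 1 gene or of summed genes in gate cells ordered by the CPM sum of Prg4, Aspn, Ptn and H19 (horizontal axis: a sum of 0, then up to the median, the 70th and the 90th percentile, then the members), by library; bars are exact Poisson intervals at 95%. Osr2, Col3a1, the proteoglycans and Peg3 were at their highest in the members of both libraries, and Krt8 with Krt18 and the G2/M genes at their lowest.

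Osr2 was also higher toward the cut in cells that were left out. It had 17.8 CPM in CT cells with a sum of 0, 43.6 CPM in CT cells between the 70th and 90th percentile, and in KO 20.2 and 35.2 CPM. Col3a1, the fibril collagen of soft tissue, had 658 CPM at a sum of 0, 1094 just below the cut and 1542 in members of CT, and 810, 1118 and 1766 in KO. Krt8 and Krt18, the keratins of simple epithelia, were together ordered the other way, with 811, 618 and 409 CPM in CT and 643, 543 and 364 in KO. KO cells with a sum of 0 were shallow, with a median of 10852 UMIs against 46093 in CT, and the part of depth in the KO order was not tested.

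Across the genome, 13830 genes had at least 50 UMIs in the gate of both libraries, and the median log2 ratio of members over other gate cells was 0.03 in CT and 0.06 in KO. Of these, 88 genes (0.636%) were at least 2-fold higher in the members of both libraries and 112 (0.81%) at least 2-fold lower. These counts moved with other settings, to 24 and 20 genes after thinning each cell to 5000 UMIs, which also chose the members anew and left 10824 genes to compare, and to 171 and 233 for the top 5% and 41 and 43 for the top 20%. These 88 were 43.3% of the 203 genes at least 2-fold higher in CT and 37.1% of the 237 in KO. The lower genes were scarce: 41 of the 112 had 3 UMIs or fewer in the members of a library. These are descriptions of the cells that the rule chose, since any gene that varies with Ptn or H19 must follow.

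**Figure D2:**
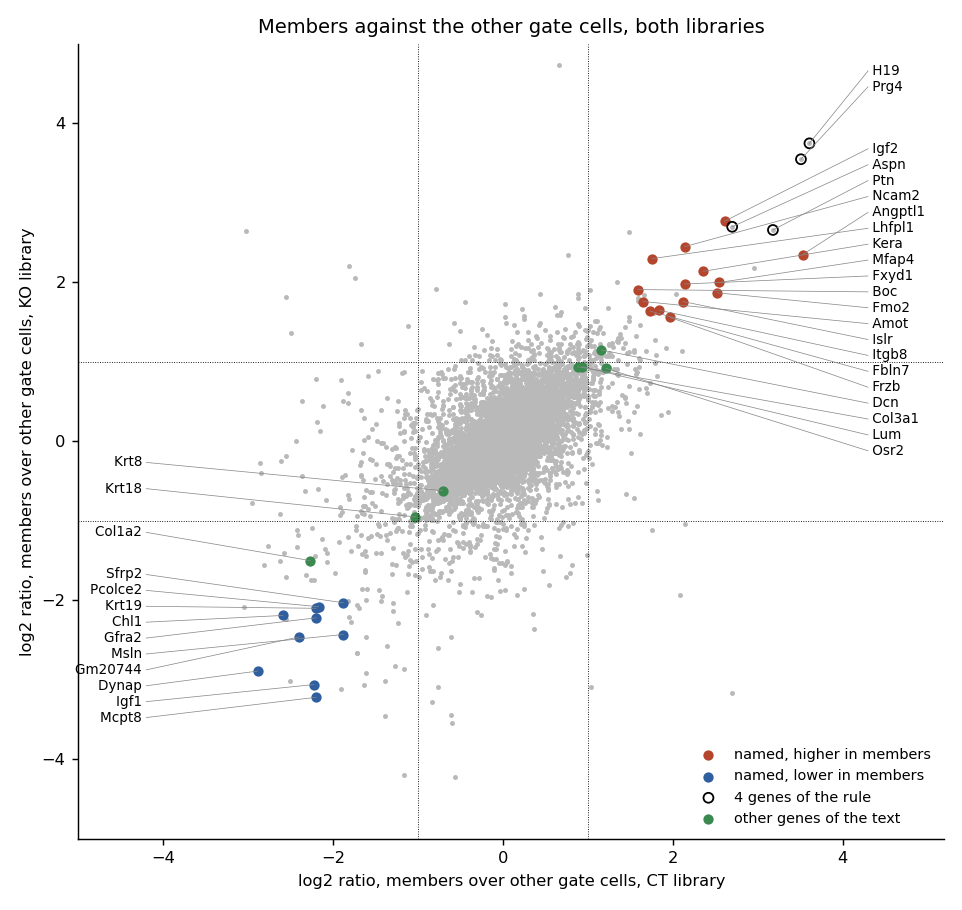
Log2 ratio of pooled CPM, members over other gate cells, in the CT library (horizontal axis) and the KO library (vertical axis), for 13830 genes and the 4 genes of the rule; dotted lines mark 2-fold. Osr2, Dcn, Col3a1 and Lum lie near 2-fold in both libraries, Igf2 next to the genes of the rule, and Krt19, Msln and Pcolce2 at the opposite end.

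Igf2, the fetal insulin-like growth factor from the H19 locus (chr7:142650766-142666816), ranked first outside the rule by the smaller of its ratios in the 2 libraries. It had 5.58 CPM (4.90 to 6.33) in CT members against 0.912 and 8.80 CPM (7.59 to 10.1) in KO members against 1.29. These are log2 ratios of 2.61 (2.37 to 2.86) and 2.77 (2.51 to 3.02). Igf2 was still rare, with UMIs in 96 CT and 72 KO members.

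The other genes that ranked highest were mostly secreted or matrix genes. Angptl1, an angiopoietin-like secreted protein, had 6.8 CPM against 0.588 in CT and 3.2 against 0.628 in KO. Mfap4, a microfibril-associated glycoprotein, had 14.4 against 2.45 and 9.45 against 2.37. Kera, which encodes the proteoglycan keratocan, had 1.61 against 0.316 and 1.53 against 0.35.

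Islr, a leucine-rich repeat protein of mesenchymal cells, had 27.6 CPM in CT members against 6.33 and 17.4 in KO members against 5.14. Amot, which encodes angiomotin, a scaffold at cell junctions and of the Hippo pathway, had 44.6 against 14.2 and 46.7 against 13.7. Ncam2, Fxyd1, Lhfpl1, Itgb8, Fbln7, Boc and Frzb also ranked among the 15 highest, with log2 ratios from 1.59 (Boc) to 2.14 (Ncam2) in CT and from 1.55 (Frzb) to 2.44 (Ncam2) in KO. Fmo2, also among the 15, rested on 1 cell in CT, which held 117 of its 193 UMIs in members (60.6%). Its log2 ratio in CT was 2.52 with this cell, 1.17 without it and -0.02 with Prg4 left out of the sum, and in KO it was 1.86. Frzb is a secreted inhibitor of Wnt signaling first known from cartilage, and Boc is a coreceptor of hedgehog ligands.

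At the other end, 3 of the 10 lowest genes had more than 7 UMIs in the members of each library, Krt19, Msln and Pcolce2. Krt19, a keratin of simple epithelia, had 1.18 CPM (0.875 to 1.55) in CT members against 5.44 and 1.11 (0.712 to 1.65) in KO members against 4.86. Msln, which encodes mesothelin, had 1.45 against 5.39 and 0.695 against 3.87. Pcolce2, an enhancer of procollagen processing, had 2.91 against 13.1 and 2.69 against 11.4.

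The remaining 7 of the 10 lowest genes, Dynap, Gm20744, Igf1, Gfra2, Mcpt8, Chl1 and Sfrp2, had at most 7 UMIs in the members of either library. Some of their ratios turned to above 0 under alternatives, after thinning to 2.26 for Sfrp2 and 0.48 for Igf1 in CT and to 0.60 for Dynap in KO, and for Chl1 in CT to 0.66 in the top 20%. Chl1, Igf1 and Sfrp2 were far higher in barcodes rich in fibroblast collagens, which are described below. Of the epithelial list, 3 of 5 genes compared in CT and 1 of 2 compared in KO were 2-fold lower. In CT, 1 of the list was 2-fold higher. Over all genes compared in CT, 2.37% were 2-fold lower and 1.75% 2-fold higher, and in KO 2.24% were lower. Krt19 was lower in both libraries. Cldn7, a claudin of tight junctions, was the higher one, with 18 UMIs in CT members (0.415 CPM against 0.1), and it had 5 UMIs in KO members (0.232 CPM against 0.112). Epcam, Cldn4 and Esrp1 had no UMI in the members. Thinned to 5000 UMIs, Krt19 was found in 0.216% of CT and 0.613% of KO members, in 2.11% and 2.31% of the other gate cells and in 0.0943% and 0.306% of macrophage-rich barcodes, so its share in the members was near that of free RNA.

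Among the gate's own genes, Krt18 had 202 CPM in CT members against 413 and 176 in KO members against 340 (log2 ratios -1.03 and -0.95). Krt8 had 207 against 338 and 188 against 289 (-0.71 and -0.62). The placental homeobox gene Rhox5 differed less, with 586 against 669 and 551 against 647 CPM. Hmga2, a chromatin protein of embryonic and cancer cells, had 352 against 450 in CT and 485 against 487 in KO. The gate set a minimum on their sum, and with this minimum at 1400 CPM the Krt18 log2 ratio was -0.50 in CT and -0.43 in KO.

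Matrix genes lay on both sides. Over all genes compared, the background for this and the following lists, 0.636% were at least 2-fold higher in both libraries and 0.81% lower. Of 10 small leucine-rich proteoglycans compared, Dcn (decorin), Ogn (mimecan) and Kera were at least 2-fold higher in the members of both libraries and Prelp, with 4 and 1 UMIs in members, was lower, and the list median was 0.60 in CT and 0.39 in KO. Dcn had 724 CPM against 324 in CT and 774 against 348 in KO. Lum (lumican) had 363 against 190 and 454 against 237, and Ogn 36.9 against 13.2 and 25.2 against 8.59. Bgn (biglycan) had 5.76 against 13.4 and 11 against 18.6.

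Dcn, Lum, Kera and Epyc lie side by side on chromosome 10, from Dcn at chr10:97479609-97518143 to Epyc at chr10:97644068-97682454. Epyc (epiphycan) had 12 UMIs in CT and 16 in KO members, 0.277 CPM against 0.0832 and 0.741 against 0.0939, too few for the comparison across genes. Of this cluster, picked after its values were seen, Dcn and Kera were past 2-fold in both libraries and Lum was not. Ecm2, Aspn, Omd and Ogn form another cluster on chromosome 13, between chr13:49504810-49532789 (Ecm2) and chr13:49608046-49624501 (Ogn). There Ecm2 had 0.761 CPM against 0.419 in CT and 0.695 against 0.347 in KO, while Omd (osteomodulin), with 13 UMIs in CT and 4 in KO members, had 0.3 against 0.247 and 0.185 against 0.274.

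Of 18 collagens, Col5a2 was at least 2-fold higher in both libraries and Col1a2 and Col12a1 were lower, with list medians of 0.15 and 0.24. Col3a1 had 1542 CPM against 838 in CT and 1766 against 922 in KO, log2 ratios of 0.88 (0.87 to 0.89) and 0.94 (0.92 to 0.95). Col6a1 and Col6a2, chains of the beaded filament collagen VI, had log2 ratios of 0.63 and 0.78 in CT and 0.80 and 0.93 in KO. Col18a1, a basement membrane collagen, had 310 CPM against 278 and 322 against 257.

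The chains of collagen I were lower. Col1a2 had 6.27 CPM in CT members against 30.3 and 16.4 in KO members against 46.5, and Col1a1 had 19.1 against 30.0 and 32.7 against 53.7. Thinned to 5000 UMIs, Col1a2 was found in 2.16% of CT and 5.67% of KO members and in 5.47% and 8.87% of macrophage-rich barcodes. Collagen I RNA in the members was thus at or below the level of free RNA and cannot be read as expression, nor its difference from the other gate cells as a change in these cells.

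Most collagen processing genes lay near a ratio of 0. Of 12 compared, none was 2-fold higher in both libraries and 2 (Lox and Loxl1, which cross-link collagen and elastin) were lower, on 14 and 9 UMIs in CT members and 23 and 19 in KO members. Pcolce had 361 CPM against 305 in CT and 307 against 288 in KO, and Serpinh1, the collagen chaperone, 311 against 279 and 326 against 277. Of 15 elastic fiber and microfibril genes compared in both libraries, 3 (Fbn1, Mfap4 and Fbln5) were at least 2-fold higher and Fbln2, Mfap2 and Mfap5 lower. Fbn1 (fibrillin-1) had 120 CPM against 54.4 in CT and 134 against 57.6 in KO, and Fbln5 (fibulin-5) 7.56 against 2.48 and 3.24 against 1.59.

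Of 17 matricellular genes, Tnxb (tenascin-X) alone was 2-fold higher in both libraries, with 11.5 CPM against 4.44 in CT and 10.3 against 4.05 in KO. Spp1 (osteopontin), the most abundant of them, had 1905 against 1875 and 2333 against 2163 CPM, and Fn1 (fibronectin) 1063 against 846 and 1337 against 838. Of 17 matrix proteases and inhibitors, 1 was higher (Adamts5, an aggrecanase) and 2 were lower in both (Mmp2 and Timp3, the latter on 6 and 7 UMIs in members). The collagenase Mmp14 had 193 CPM against 135 and 191 against 120.

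**Figure D3:**
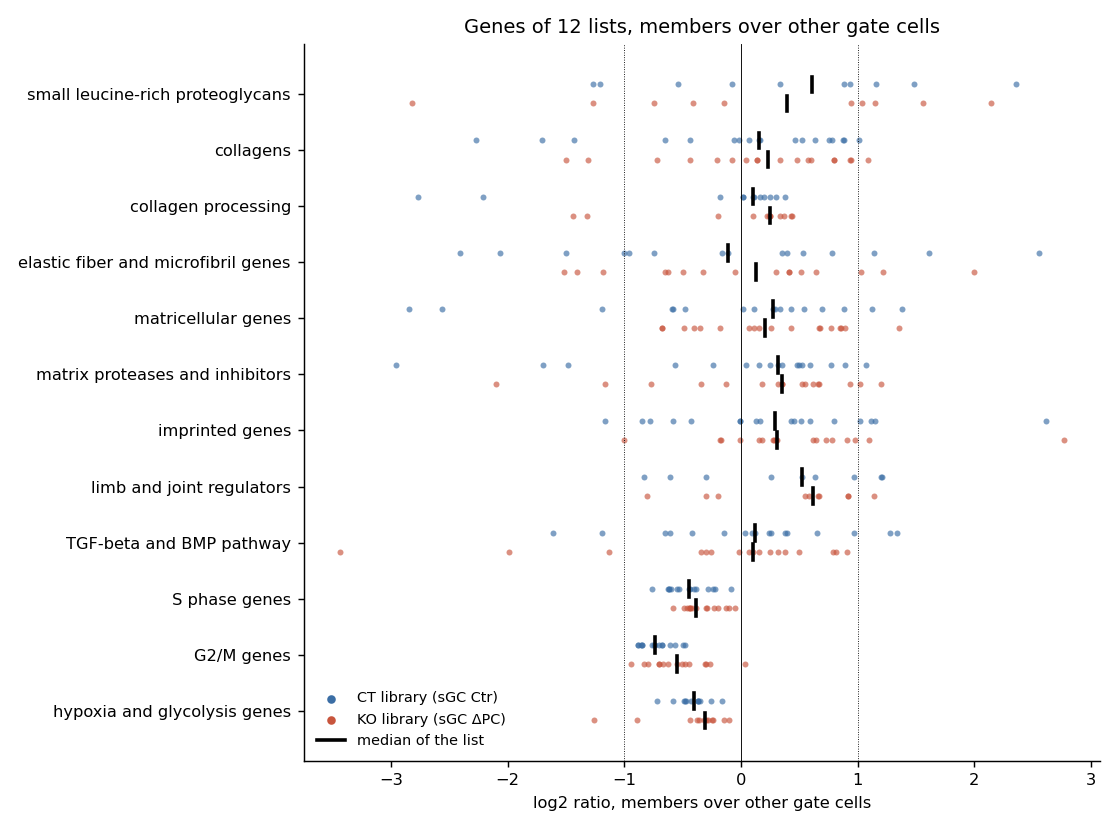
Log2 ratio of members over other gate cells (horizontal axis) for each gene with at least 50 UMIs in the gate of that library, in 12 lists (vertical axis), by library; black bars are list medians and dotted lines mark 2-fold. Matrix lists spread to both sides, while the S phase, G2/M and hypoxia lists lie almost wholly below 0 in both libraries.

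Genes of joint and cartilage were set beside Prg4. Of the limb and joint regulators, 6 of 9 compared in CT and 7 of 10 compared in KO had a ratio above 0. None was past 2-fold in both libraries, and the medians were 0.52 and 0.62. Over all genes the median was 0.03 in CT and 0.06 in KO, so most genes had a ratio above 0. Osr1 had 49.3 CPM against 31.9 in CT and 41.0 against 28.1 in KO, and Foxc1, a forkhead factor of mesenchyme, 19.1 against 8.33 and 15.9 against 8.44. Sox9, the master regulator of cartilage, was lower, with 29.6 against 45.2 and 41.0 against 50.6. Sox6, Gdf5, Barx1, Pitx1 and Tbx5 had no UMI in the members, and neither had Acan (aggrecan), Col9a1, Chad, Hapln1 and Tnmd among 16 cartilage and tendon matrix genes. Of that list, 3 of 5 genes compared in CT and 3 of 4 in KO had a ratio above 0, as most of all genes did. Its medians were 0.16 and 0.31, and none of its genes was past 2-fold. It summed to 40.3 CPM in CT members against 29.5 and to 46.9 in KO members against 31.3, led by Matn2 (38.3 against 27.1 and 44.3 against 29). For a gene without a UMI the limit was 0.0692 CPM in CT and 0.139 CPM in KO members.

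Imprinted genes beside Igf2 were mixed. Of 18 compared, 2 (Igf2 and Peg3) were at least 2-fold higher in both libraries, and the medians were 0.29 and 0.31. Peg3, a zinc finger protein of the paternal allele, had 156 CPM against 72.2 in CT and 153 against 71.4 in KO. Igf2r, the clearance receptor of Igf2, had 110 against 73.5 and 132 against 79.6. Kcnq1ot1 had 218 against 198 and 247 against 204, and Slc38a4 27.6 against 27.9 and 30.1 against 30.4.

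The receptors that pleiotrophin and lubricin can bind had levels near those of the other gate cells. Of 10 genes of the pleiotrophin family and its receptors none was past 2-fold, and the medians were 0.07 and 0.10. Ptprz1, the best known pleiotrophin receptor, had no UMI in the members. Ncl (nucleolin) had 1043 CPM against 1330 in CT and 1137 against 1386 in KO, and Lrp1 191 against 132 and 181 against 128. Cd44, a lubricin receptor, had 108 against 109 and 123 against 123.

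Growth factor pathways showed single genes. Of 17 TGF-beta and BMP genes, none was 2-fold higher and Bmp7 and Fst (follistatin) were lower in both libraries, with medians of 0.12 and 0.10. Bmp7 rested on 4 UMIs in CT members and 1 in KO members. Id3, a target of BMP signaling, had 157 CPM against 80.6 in CT and 135 against 77.2 in KO, and Tgfbr3 96.5 against 74.2 and 118 against 83.1. Of 11 Wnt genes, 1 (Frzb) was higher and 2 (Sfrp1 and Sfrp2, on 7 UMIs or fewer in members) were lower in both, and Dkk2, the most abundant, had 288 against 198 and 295 against 205 CPM. Of 7 genes of the IGF axis none was 2-fold higher, 3 were lower in CT and 1 (Igf1, on 6 and 4 UMIs in members) in both libraries. The medians were -0.73 in CT and 0.24 in KO. Its most abundant genes lay above 0. Igfbp4 had 1346 against 818 CPM in CT and 1245 against 810 in KO, and Igfbp6 233 against 172 and 166 against 133.

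Genes of the cell cycle had ratios below 0 almost throughout. Over all genes compared, the median was 0.03 in CT and 0.06 in KO, and the lower quartile was -0.16 and -0.15. All 15 S phase genes had a ratio below 0 in both libraries, with medians of -0.45 in CT and -0.39 in KO. All 15 G2/M genes were below 0 in CT (median -0.74) and 14 of 15 in KO (median -0.55), where Mki67 was the exception at 97.8 CPM against 95.6. With each cell thinned to 5000 UMIs, however, 18.4% of KO members (15.5 to 21.6) had an Mki67 UMI against 23.4% (22.5 to 24.3) of the other gate cells, and 14.4% of macrophage-rich barcodes did. The study describes Mki67-positive macrophages in these tumors, so for this gene the last share is no level of free RNA. Top2a had 167 CPM against 235 in CT and 206 against 254 in KO, and Ube2c 85.5 against 155 and 88.5 against 169. All 12 hypoxia and glycolysis genes were below 0 in both libraries, with medians of -0.40 and -0.31, and Ldha had 901 CPM against 1167 and 925 against 1189. None of these genes was 2-fold lower in both libraries.

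Mesenchymal genes were shared with the rest of the gate. None of 10 was past 2-fold, and the medians were -0.06 and 0.07. Vim (vimentin) had 3179 CPM against 3729 in CT and 3268 against 3814 in KO, and Prrx1, a homeobox gene of limb mesenchyme, 264 against 185 and 273 against 181. Immediate early genes had medians of 0.25 and 0.38, with Jun at 850 against 687 and 1053 against 775 CPM. Interferon and MHC class I genes had medians of 0.29 and -0.02, and H2-D1 had 293 against 343 CPM and 328 against 401. Hmga1, an embryonic chromatin protein like Hmga2, had 57.3 against 106 and 61.6 against 108.

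Ptn-led and H19-led members, split by the rule's own genes, were set side by side as a description. Ogn had 43.8 CPM in CT members where Ptn was highest and 14 where H19 was highest, and in KO 42.1 and 10.6. Osr2 had 69.4 and 42.1 CPM in CT and 56.2 and 40.2 in KO, and Islr 31.0 and 19.7, and 24.6 and 11.5. Igf2 had the other order, with 3.26 CPM in Ptn-led and 11.3 in H19-led CT members and 4.57 and 13.0 in KO. Lum had 292 and 445 CPM in CT and 347 and 480 in KO. The order was the same in both libraries for these 5 genes, which were named after their values were seen.

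**Figure D4:**
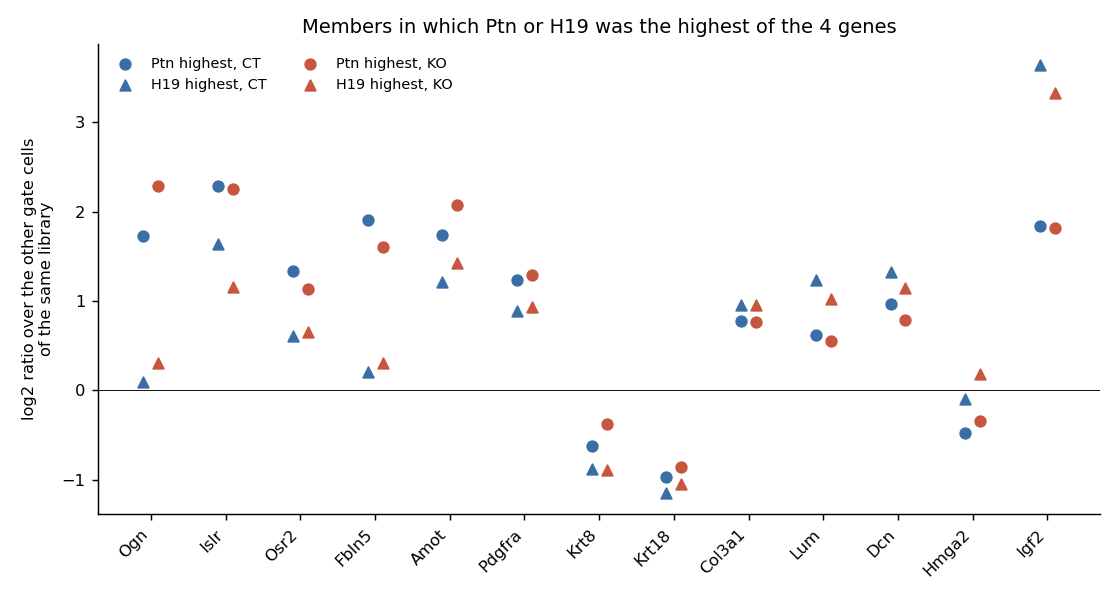
Log2 ratio of pooled CPM over the other gate cells of the same library (vertical axis) for 13 genes (horizontal axis), in members in which Ptn (circles) or H19 (triangles) was the highest of the 4 genes, by library. Ogn, Islr, Osr2 and Fbln5 were higher in Ptn-led members and Igf2, Lum and Dcn in H19-led members of both libraries, while Krt8 and Krt18 lay below 0 in all 4 sets.

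Gate cells ranked by another set of genes, Igfbp6, Clu and Scara5, shared some of the members. Taking the top 10% by these genes gave 746 CT and 831 KO cells, and 154 and 95 of them were members, that is 16.7% of the CT and 14.5% of the KO members and 20.6% and 11.4% of the other set. Over the whole gate that set was 10.8% of the CT and 9.36% of the KO cells, so it took a larger share of the members than of the gate in both libraries. That set had Dcn at 628 and 566 CPM and Lum at 376 and 420, where the members had 724 and 774, and 363 and 454. It had Krt18 at 450 CPM in CT and 307 in KO, against 202 and 176 in the members. Osr2 was at 52.2 and 39.1 CPM and Ogn at 18.3 and 9.85, between the members and the other gate cells.

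Fibroblasts use many of the same matrix genes, so their RNA was set beside that of the members. Barcodes chosen for their collagen RNA (Col1a1, Col1a2 and Col3a1) and poor in the cancer genes (113 in CT and 58 in KO) had Dcn at 5148 and 5454 CPM, Col3a1 at 22781 and 21672 and Col1a1 at 9942 and 10712. Col1a1 in the members was at 19.1 and 32.7 CPM. In these fibroblast-rich barcodes Ptn had 46.1 and 27.3 CPM, H19 40.5 and 19.8 and Osr2 31.3 and 14.3, all below the members. Angptl1 (32.9 and 12.3), Mfap4 (142 and 71.1), Fxyd1 (154 and 113), Fbln7 (36.1 and 34.2) and Islr (59.8 and 44.4), which ranked high in the members against the other gate cells, were higher in the fibroblast-rich barcodes than in the members, as were Fmo2, Itgb8 and Boc. Amot (7.22 and 4.1), Igf2 (3.61 and 0.683) and Frzb (2.01 in CT and no UMI in KO) were lower there, and Ncam2 and Lhfpl1 had no UMI. Aspn (138 and 70.4) was higher there than in the members, and Prg4 had 68.2 CPM in CT, above the members, and 17.1 in KO, below them. Aspn was higher still in the pericyte-rich barcodes, with 435 and 368 CPM. Of the genes lowest in the members, Chl1 had 494 and 534 CPM in the fibroblast-rich barcodes. Igf1 had 315 and 300 CPM there and Sfrp2 245 and 182. Krt19, Pcolce2 and Gfra2 were also higher there than in the members and the other gate cells. Dynap, Gm20744 and Mcpt8 had no UMI there, and Msln had 0.401 CPM in CT and no UMI in KO. Apart from these comparisons, the part of fibroblast RNA in the members and in the other gate cells was not tested.

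Of 10 fibroblast markers, Dpt and Pdgfra were 2-fold higher in the members of both libraries. The list was mixed, with 5 genes above a ratio of 0 in CT and 6 in KO, and medians of 0.19 and 0.04. Thy1 was 2-fold lower in CT, with 0.553 CPM in members against 1.57, and had 2.78 against 2.8 in KO. The list summed to 274 CPM in CT members against 208 in the other gate cells and to 288 against 218 in KO. Dpt (dermatopontin), the most abundant, had 136 CPM against 63.6 and 139 against 64.2. Ly6c1 and Ly6a, markers of the same list, had lower ratios, from -0.37 to -0.47.

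Macrophage markers summed to 148 CPM in CT members against 143 and to 225 in KO members against 316, led by Lyz2, and endothelial markers to 34.9 against 36.7 and 33.8 against 39.8, led by Egfl7. Granulocyte markers summed to 25.7 CPM against 24.8 and 34.9 against 47.0, led by S100a9, T cell markers, led by Cd3d, to 0.876 against 0.783 and 1.02 against 2.15, and fat and muscle markers, led by Tnnt3, to 1.22 against 1.15 and 1.2 against 1.31. Cd3e and Cd3g were at 0 in KO members, and Adipoq, Plin1, Cidec and Myh4 in members of both libraries. All 5 lists were below the other gate cells in KO, and their part in the ratios above was not tested.

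Pericyte markers were the exception in KO. They summed to 5.03 CPM in CT members against 6.09, and to 18.3 in KO members against 9, led by Acta2 in CT and Rgs5 in KO. Of the 394 UMIs in KO members, 59.6% came from 3 cells, and 7 members held 1000 CPM or more of these markers. The markers were thus concentrated in a few barcodes, and the median member had 0 CPM of them in both libraries. Their part in the differences between libraries is given below with those cells left out.

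Members made up 924 of 6885 gate cells in CT (13.4%, interval 12.6 to 14.2) and 653 of 8877 in KO (7.36%, 6.82 to 7.92). The log2 ratio of the shares was -0.87 (-1.01 to -0.72), a share in KO of 0.548 times that in CT. This lower share rested on Ptn. With Ptn left out of the sum, members were 8.87% of the CT gate and 10.9% of the KO gate, a log2 ratio of 0.29, and with H19 left out the log2 ratio was -1.05. The libraries also differed in depth, and among gate cells with at least 20000 UMIs the members were 11.9% in CT and 7.28% in KO. With 1 library of pooled tumors per condition, a difference between conditions and a difference between tumors cannot be told apart.

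Within the members, 11760 genes had at least 50 UMIs over both libraries. Of these, 140 (1.19%) were at least 2-fold higher in KO and 20 (0.17%) at least 2-fold lower, and the median log2 ratio was 0.04. After thinning these counts were 67 and 28, by the mean of single cells 261 and 69, and at a minimum of 200 UMIs 36 and 7. In the other gate cells 110 and 7 of the same genes were past 2-fold, and 60 of the 140 (42.9%) and 4 of the 20 were among them. Whether any of the 140 or 20 differed more in the members than in the other gate cells was not tested.

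**Figure D5:**
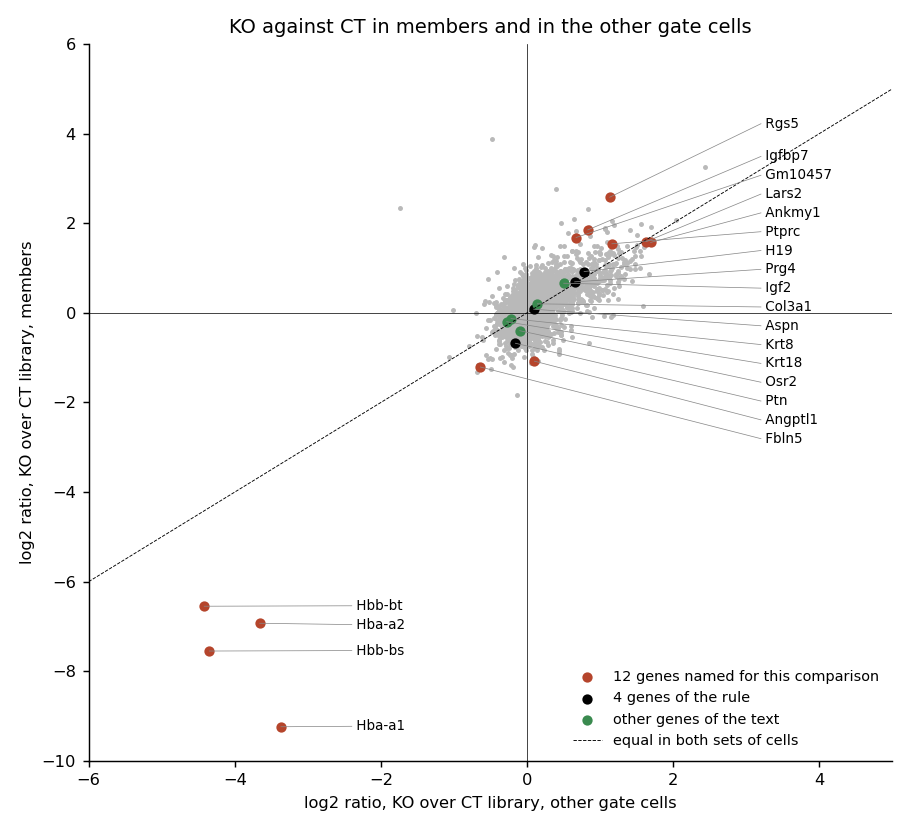
Log2 ratio of pooled CPM, KO over CT library, in the other gate cells (horizontal axis) and in the members (vertical axis), for genes with at least 50 UMIs in each; the dashed line marks equal ratios. Lars2 and Ankmy1 lie near the line, the 4 globin genes far down in both sets of cells, and Rgs5 above the line.

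The genes that stood highest in KO members were Rgs5, Igfbp7, Gm10457, Lars2, Ankmy1 and Ptprc. Lars2, the mitochondrial leucyl-tRNA synthetase, had 112 CPM in CT and 339 in KO members (log2 ratio 1.59, 1.54 to 1.64), and 94.0 and 290 CPM in the other gate cells (1.63). Ankmy1 (1.87 and 5.56 CPM) and Ptprc, the pan-leukocyte gene (2.10 and 6.11 CPM), had log2 ratios of 1.57 in members and 1.69 in the other gate cells, and of 1.54 and 1.16. All 3 were thus past 2-fold in both sets of cells. Gm10457 had 2.81 and 9.03 CPM, a log2 ratio of 1.68 in members and 0.67 in the other gate cells. Of its UMIs in members, 32% in CT and 44.6% in KO came from 3 cells in each library.

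Rgs5, a regulator of G protein signaling and a pericyte marker, had 50 UMIs in CT members and 150 in KO members (1.15 and 6.95 CPM). Of these, 76% and 74% came from 3 cells in each library. Igfbp7 had 2.51 and 9.08 CPM, a log2 ratio of 1.85 (1.51 to 2.20), against 0.83 in the other gate cells. With cells of 300 CPM or more of pericyte markers or globin genes left out, the log2 ratio of Rgs5 was 1.01 and that of Igfbp7 was 1.05.

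The genes that stood lowest in KO members were 4 globin genes, Fbln5 and Angptl1. Hbb-bs had 1318 UMIs in CT members and 3 in KO members, and the 4 globin genes together had 2571 and 5. One CT member held 2369 of the 2571, and without it the CT members had 4.66 CPM of globin RNA in place of 59.3. Hba-a1 had no UMI in KO members, for which the limit of 3 counts is 0.139 CPM. Globin RNA was also lower in the other gate cells of KO, with Hbb-bs at 6.83 CPM in CT and 0.332 in KO.

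Fbln5 had 7.56 CPM in CT and 3.24 in KO members, a log2 ratio of -1.22 (-1.62 to -0.85), and -0.64 in the other gate cells. Angptl1 had 6.8 and 3.2 CPM, a log2 ratio of -1.09 (-1.49 to -0.71), while the other gate cells had 0.588 and 0.628 (0.10). Both were higher in Ptn-led than in H19-led members of each library. Fbln5 was at -0.93 within Ptn-led and -0.53 (-1.38 to 0.29) within H19-led members, and Angptl1 at -0.77 and -1.03.

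Among matrix genes, some had like ratios between libraries in both sets of cells and others did not. KO over CT in members, the log2 ratio was 0.09 for Dcn, 0.20 for Col3a1, 0.16 for Fbn1 and 0.32 for Lum, against 0.10, 0.14, 0.08 and 0.32 in the other gate cells. Fn1 had 0.33 in members and -0.01 in the other gate cells, Col6a1 0.09 and -0.08, and Col18a1 0.06 and -0.12. In members, the log2 ratio was -0.55 for Ogn, -0.61 for Mfap4 and -0.67 for Islr, against -0.62, -0.05 and -0.30 in the other gate cells. Within Ptn-led and H19-led members Ogn had -0.06 (-0.22 to 0.10) and -0.41, Mfap4 -1.07 and 0.04 (-0.34 to 0.42), and Islr -0.33 and -0.78. Col5a2 and Bgn had ratios above 0 in both sets of cells, with 0.31 and 0.94 in members and 0.24 and 0.47 in the other gate cells. Osr2 had -0.40 (-0.50 to -0.29) in members and -0.10 in the other gate cells, and within Ptn-led and H19-led members -0.30 and -0.07. Igf2 had 0.66 (0.38 to 0.94) in members and 0.50 in the other gate cells, and 0.49 and 0.20 within the Ptn-led and H19-led members.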

How the data were processed

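Per the labels and the study's methods, a 10x 3' kit was used and the authors ran Cell Ranger 6.1.1 on mm10. The deposited matrices hold UMI counts per gene and barcode, not normalized, and 3' counts stand for molecules with no length term. The members and gene lists were chosen with earlier results of these data known. UMIs were summed over the cells of a set and given as CPM with exact Poisson intervals, shares have exact binomial intervals, and log2 ratios exact conditional ones. Calls across all genes used a pseudocount of 0.5 counts, at least 50 UMIs and a 2-fold threshold, with no test. Genes with at least 100 UMIs in the gate of each library were ranked by the ratio nearer to 0, and the 15 highest and 10 lowest were named, except 1 that is not reported here. For KO over CT the 6 genes each way with at least 200 UMIs in members were named. From each list the most abundant genes were named first, and others after their values were seen. The calculation of the ratios was checked on simulated pooled counts with known changes in well-covered genes. That check held no spread between cells, no choice of members and no changes in scarce genes. Scrublet, in scanpy 1.11.5, marked 4.7% of CT barcodes and none in KO, so doublets were not removed. Other tools were Python 3.11.15, numpy 2.4.6 and scipy 1.17.1.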

Additional observations from a re-analysis of the deposited data

Results flagged for a closer look

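Cox4i2, S100a2, Thap8 and Tc2n stood at least 2-fold lower in CT members and at least 2-fold higher in KO members, each against the other gate cells of its library. These differences between the libraries were not tested. They are the genes with at least 100 UMIs in the gate of each library, and with at least 50 UMIs there were 7. Among the latter was the pericyte marker Higd1b, with 1 UMI in CT members (0.0231 CPM against 0.278) and 59 UMIs in 4 cells in KO (2.73 CPM against 0.437), and the part of pericyte RNA in the other genes was not tested. Cox4i2, a subunit of cytochrome c oxidase, had log2 ratios of -1.74 and 2.06, from 4 UMIs in CT and 45 UMIs in 8 cells in KO. S100a2, a calcium-binding protein, had -2.55 and 1.82, from 12 UMIs in CT and 91 UMIs in 10 cells in KO. Thap8 had -1.81 and 2.21, from 5 UMIs in CT and 36 UMIs in 16 cells in KO. Tc2n had -1.67 and 1.22, from 8 UMIs in CT and 28 UMIs in 5 cells in KO.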

How the results depend on the processing

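The lower share of members in KO kept its direction under the alternatives that can give one, except leaving Ptn out of the sum, where the log2 ratio was 0.29. Taking the top 10% within each library sets the share to 10% in both and gives no direction. It was -0.70 with each cell thinned to 5000 UMIs, -1.05 without H19, -1.12 for the top 5%, -0.40 for the top 20%, -0.32 with the cancer genes at 1400 CPM or more, and -0.70 at 20000 UMIs or more, an alternative added after seeing the data. Genes 2-fold higher and lower in members of both libraries numbered 24 and 20 after thinning, 55 and 36 without Ptn, 171 and 233 for the top 5%, 41 and 43 for the top 20%, 41 and 61 at 1400 CPM, 49 and 61 at a minimum of 200 UMIs, which compares fewer genes, and 196 and 41 with a pseudocount of 5 counts, which raises ratios of scarce genes because the members hold fewer UMIs. Genes 2-fold higher in KO members numbered 67 after thinning, 231 for the top 20%, 261 by the mean of single cells and 36 at 200 UMIs. Genes lower in KO numbered 32 for the top 5%, 69 by single cells, 7 at 200 UMIs and 8 with the larger pseudocount. Where none is stated, the cause was not tested. Of 2768 single gene and list values under the alternatives, 2035 stayed within their interval or spread, 721 moved beyond it and 12 reversed. After thinning the log2 ratio of Dynap was 0.60 in KO, and in CT that of Igf1 was 0.48, of Chl1 0.30 and of Sfrp2 2.26. Without Prg4, Fmo2 was at -0.02 in CT. Without Ptn, Igf1 was at 0.95 in CT and 0.11 in KO, Chl1 at 0.26 in CT, and Sfrp2 at 0.10 and 0.25. Chl1 in CT was at 0.09 without H19 and 0.66 for the top 20%. Leaving out marked doublets removed cells of CT alone. No paired analysis was possible because each condition has 1 library. Depth limits genes of a few UMIs, and intervals cover counting error only.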
